A study of Arabidopsis thaliana with 30 samples.

Results

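Leaves of wild-type Arabidopsis thaliana (accession Col-0) sampled 60 min after the onset of waterlogging were compared with leaves sampled 30 min after it. The 6 libraries, 3 for each time, were chosen by the titles that place them in the WT waterlogging groups of those times, out of 30 libraries in the study. The tissue was systemic leaves, that is, leaves away from the part of the plant that was flooded, and the only difference in the labels between both groups was the time. Untreated Col-0 leaves collected at 60 min and at 30 min, 3 libraries each, were used to mark changes that took place without waterlogging. Waterlogged and untreated Col-0 leaves of 10 min, and waterlogged and untreated leaves of the genotype labelled rbohD at 60 min, for which the labels give no allele, add 3 libraries per group and are used where named. The design text describes 3 repeats made up from 15 plants for each genotype and time, without saying whether that number holds per repeat. Nothing in the labels says that the repeats of a group were grown separately, so p-values measure the spread between these samples.

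When roots are flooded, oxygen in the soil falls and signals reach the shoot within minutes. One such signal is the ROS wave, in which the NADPH oxidase RBOHD makes superoxide at the surface of one cell after another, together with calcium and electrical changes. Systemic stress signals of this kind are known to induce short-lived transcripts, such as those of ZAT and WRKY transcription factors, calcium-binding proteins and cell wall enzymes, and the hormones jasmonate, ethylene and abscisic acid (ABA) act alongside them. Leaf transcripts also follow the circadian clock, light and the supply of sugar.

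Expression was given as FPKM, the fragments of a gene scaled to its length and to the mapped fragments of the library, and the 17491 genes that averaged 1 FPKM or more across the 30 libraries were tested. Fold changes are differences of log2(FPKM + 1), so they understate the change of low genes. A gene is said to have risen or fallen where limma's Benjamini-Hochberg adjusted p, over all 17491 genes, was under 0.05. The 12 WT libraries of 60 and 30 min held an estimated 11699909 to 13317399 fragments in genes, from the upper bounds listed beside each FPKM if these are read as counting error. The depth itself is unknown. Leaf genes dominated all 12, with summed levels of 6 leaf markers between 36138 and 39130 FPKM. The 8 root markers summed to at most 0.339 FPKM per library, and 5 or 6 of them were at 0 in every library of a group. The 18S ribosomal RNA gene AT3G41768 stood at 5754 FPKM in replicate 3 of the waterlogged 60 min group, against 1544 to 2640 FPKM in the other 11 libraries. In the libraries labelled rbohD at 60 min it stood at 4050 to 5466 FPKM. The cause of these high levels was not tested. As leaves are a mixture of cells, fewer cells of a type and less RNA per cell cannot be told apart in any value given here.

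Between 30 and 60 min of waterlogging, many of the genes that had responded first fell and others rose. The largest falls were in transcripts of transcription factors, calcium sensors, cell wall proteins and jasmonate outputs, whereas the largest rises included genes of sugar shortage, proline breakdown, ABA perception and chlorophyll synthesis. Promoters of ZAT10 and PHI-1, which fell, and of DIN10 and PORA, which rose, are shown as examples. These promoters were picked by hand, so they do not stand for all genes that fell or rose. Each is the 250 bases before the gene start, 5′ to 3′ on the coding strand, from RefSeq TAIR10.1, with matches to the motifs searched in capitals. The ZAT10 window is chr1:9649324-9649573 on the minus strand, the PHI-1 window chr1:12851733-12851982 on the plus strand, the DIN10 window chr5:6833314-6833563 on the plus strand and the PORA window chr5:21992815-21993064 on the minus strand.
ZAT10: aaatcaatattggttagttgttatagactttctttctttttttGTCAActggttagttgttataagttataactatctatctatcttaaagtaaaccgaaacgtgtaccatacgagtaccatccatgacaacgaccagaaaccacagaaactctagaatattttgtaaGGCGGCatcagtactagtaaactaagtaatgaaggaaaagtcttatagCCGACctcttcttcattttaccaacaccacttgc
PHI-1: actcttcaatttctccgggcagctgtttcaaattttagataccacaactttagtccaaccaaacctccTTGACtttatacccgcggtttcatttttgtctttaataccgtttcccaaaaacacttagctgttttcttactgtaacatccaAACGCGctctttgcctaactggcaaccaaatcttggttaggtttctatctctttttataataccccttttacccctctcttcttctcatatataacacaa
DIN10: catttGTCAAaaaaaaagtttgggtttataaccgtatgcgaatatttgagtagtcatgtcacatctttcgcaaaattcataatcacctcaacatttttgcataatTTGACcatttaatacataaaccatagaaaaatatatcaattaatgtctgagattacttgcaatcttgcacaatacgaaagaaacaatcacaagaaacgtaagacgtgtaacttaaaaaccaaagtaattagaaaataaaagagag
PORA: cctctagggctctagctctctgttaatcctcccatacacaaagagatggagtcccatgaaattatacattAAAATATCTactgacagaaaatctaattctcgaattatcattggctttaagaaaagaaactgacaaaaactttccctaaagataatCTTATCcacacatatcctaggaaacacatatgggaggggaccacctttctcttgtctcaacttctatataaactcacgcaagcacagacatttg
In the ZAT10 window the capitals mark 1 W-box core (TTGAC or its reverse complement), 1 GCC-box (GCCGCC, here on the other strand) and 1 DRE core (CCGAC). In the PHI-1 window they mark 1 W-box core and 1 match to the rapid stress response element core (CGCGTT, here on the other strand). The DIN10 window holds 2 W-box cores, and the PORA window holds 1 evening element (AAAATATCT) and 1 I-box core (GATAAG, here on the other strand).

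Of the 17491 genes tested, 6657 (38.1%) differed between 60 and 30 min of waterlogging, 3694 (21.1%) of them higher at 60 min and 2963 (16.9%) lower. Large changes were mostly falls: 401 genes (2.29%) fell at least 2-fold and 101 (0.577%) rose at least 2-fold. In 9025 genes (51.6%) the 3 libraries of 60 min and the 3 of 30 min did not overlap. In untreated leaves 1705 genes (9.75%) differed between the same times, 1041 (5.95%) higher at 60 min and 664 (3.80%) lower, of which 48 (0.274%) and 14 (0.0800%) changed at least 2-fold. Groups did not overlap there in 4894 genes (28.0%). Counts of list members given below are to be set against the shares of all genes called. These were 21.1% higher and 16.9% lower in waterlogged leaves, and 5.95% and 3.80% in untreated leaves. The 664 falls in untreated leaves became 441 without untreated 60 min replicate 1 and 428 without untreated 30 min replicate 3. The median log2 change of all genes was 0.05 in waterlogged and 0.02 in untreated leaves. The difference between both changes, waterlogged minus untreated, passed the test in 3148 genes (18.0%), with 1290 (7.38%) positive and 1858 (10.6%) negative. Without waterlogged 60 min replicate 3, whose 18S level stood apart from the other WT libraries, 5825 genes were called, and again 401 fell and 101 rose at least 2-fold. After quantile normalization the share of positive calls in that difference was 51.0%, against 41.0% as reported, and the share of higher calls in untreated leaves was 49.8%, against 61.1%.

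**Figure D1:**
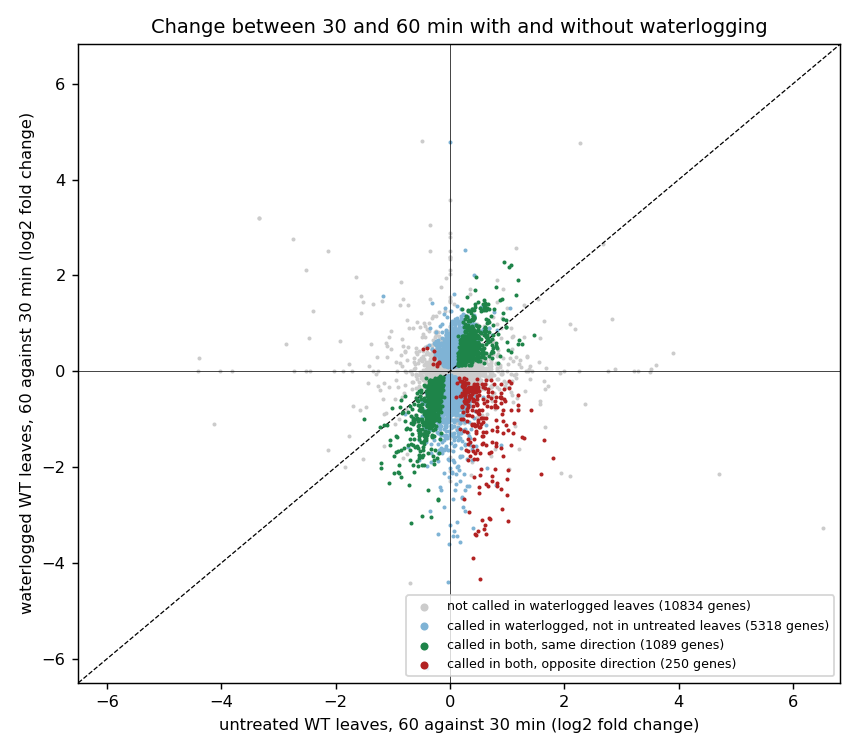
Change between 60 and 30 min in waterlogged WT leaves (vertical axis) against the change in untreated WT leaves (horizontal axis), both as log2 fold change of FPKM + 1, with a point for each tested gene, with the dashed line marking equal change. Points called in both with the same direction number 1089 and those with opposite directions 250, and of these 250, 239 lie in the lower right, where genes fell in waterlogged and rose in untreated leaves.

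The genes that had responded by 10 min gave an account of the early response. The 6 libraries compared here entered it only through the shared estimate of spread and the filter on the mean over all 30 libraries. Early genes expressed mainly at 30 min of waterlogging could pass that filter through those libraries, and such genes could only fall. At 10 min 724 genes (4.14%) were higher in waterlogged than in untreated leaves. Of these 724 early genes, 416 (57.5%) fell between 30 and 60 min, against 16.9% of all genes tested, while 133 rose and 175 did not pass the test. Their median log2 change from 30 to 60 min was -0.36 in waterlogged leaves and 0.26 in untreated leaves, where 371 rose and 23 fell. The median was lower still among the 148 early genes (0.846% of all tested) that were at least 2-fold higher at 10 min. Here 121 (81.8%) fell, 98 of them at least 2-fold, 5 rose, and the median was -1.48 in waterlogged and 0.52 in untreated leaves. Set against untreated leaves of the same time, the median of these 148 genes was 1.99 at 30 min and -0.03 at 60 min on the log2 scale. Of the 151 genes (0.863%) lower at 10 min, 51 (33.8%) rose, against 21.1% of all genes tested, and 38 (25.2%) fell, against 16.9% of all, with a median of 0.09. Against untreated leaves of the same time their median was -0.14 at 30 min and -0.07 at 60 min.

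**Figure D2:**
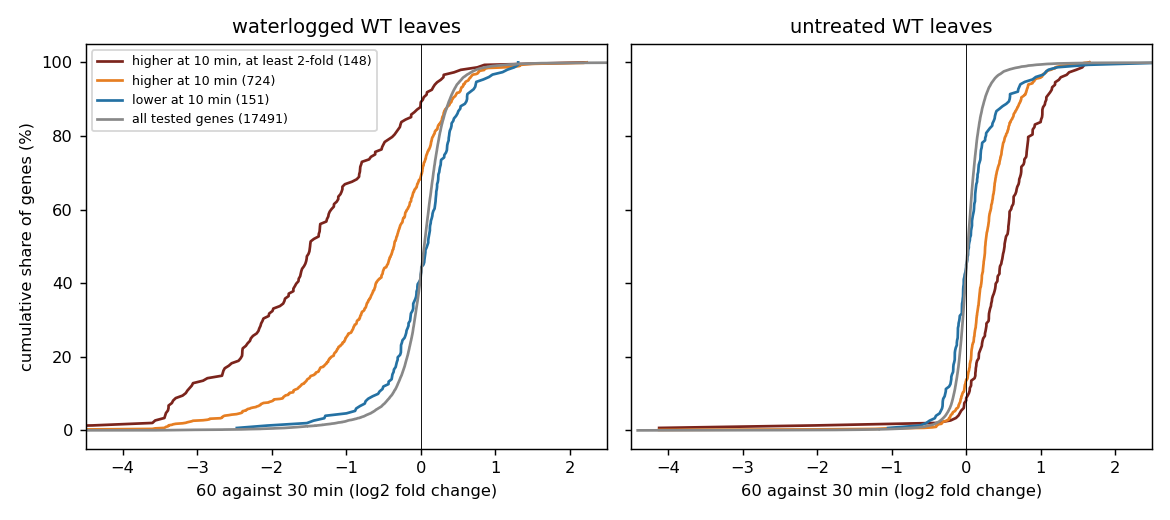
Cumulative share of genes (vertical axis, %) by log2 fold change of 60 against 30 min (horizontal axis) in waterlogged leaves (left panel) and untreated leaves (right panel), for genes grouped by their response at 10 min. The 148 genes that were at least 2-fold higher at 10 min lie furthest left in waterlogged leaves, with a median of -1.48, and furthest right in untreated leaves, with a median of 0.52.

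Components of the signal itself were among the genes that fell. RBOHD, the oxidase that produces the ROS wave (AT5G47910, chr5:19397041-19402061), stood at 13.3, 13.5 and 13.8 FPKM at 60 min of waterlogging and at 48.7, 48.4 and 49.4 FPKM at 30 min. All libraries of 60 min lay below every untreated library of that time, which held 21.2, 24.1 and 25 FPKM. It fell by 1.78 on the log2 scale (SE 0.06, adjusted p = 2.47e-16), and in untreated leaves its change of 0.18 did not pass the test (adjusted p = 0.0881). MPK3, a MAP kinase of stress signalling, averaged 47.6 ± 3.4 FPKM at 60 min and 156 ± 5.97 FPKM at 30 min (SD, n = 3 each), a log2 change of -1.69 (adjusted p = 2.87e-16). In untreated leaves MPK3 rose by 0.71 over the same time. Another kinase of the same cascade, MKK9, changed by -1.59 (adjusted p = 1.11e-11). The MAP kinase kinase MKK1 moved the other way, with 17.7, 16.9 and 14.8 FPKM at 60 min and 6.4, 5.92 and 5.93 FPKM at 30 min, and its rise of 1.3 (adjusted p = 3.59e-08) had no counterpart in untreated leaves, where the change was 0.19 (adjusted p = 0.48). Of 11 tested members of a list of ROS-producing oxidases and MAP kinases, 5 fell (45.5%, against 16.9% of all genes). Another 2 rose (18.2%, against 21.1% of all), and the list's median was -0.20 against 0.05 for all genes.

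Transcription factors of the ERF and CBF families, which relay ethylene, cold and general stress signals, fell in the list used: all 12 tested members of 17 passed the test, with a median of -2.29. The filter was a mean over all 30 libraries, so members expressed mainly at 30 min of waterlogging could pass it through those libraries. Such members could only fall, so the full count is not evidence of its own, and the same limit holds for falls counted in the other lists. In untreated leaves 8 of the 12 rose and none fell, and the difference between both changes was negative and past the threshold for all 12. ERF104 (AT5G61600), a factor acting below MAP kinase signalling, had 4.06, 2.69 and 4.49 FPKM at 60 min and 56.5, 59.4 and 51.9 FPKM at 30 min. No library of one time came near those of the other, and the log2 change was -3.6 (SE 0.16, adjusted p = 8.77e-15). Its close relative ERF105 (AT5G51190) was listed at 2.01e-06, 1.43e-06 and 1.11e-06 FPKM at 60 min, against 76.9, 70.5 and 70.3 FPKM at 30 min. Those values at 60 min are next to 0, as they are in 5 of the 6 untreated libraries of both times, so no ratio is given, and the adjusted p was 9.53e-17. CBF2, a cold-response activator, stood at 0.861, 0.707 and 0.263 FPKM at 60 min and 13.4, 12.5 and 14.9 FPKM at 30 min, a change of -3.2 (adjusted p = 3.2e-13).

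Zinc finger and WRKY factors followed in part. Among 17 tested members of that list, 11 fell and 2 rose, with a median of -0.72, and in untreated leaves 7 rose and none fell. ZAT10 (AT1G27730, chr1:9648021-9649323), a zinc finger repressor of stress genes, had 5.12, 3.71 and 4.0 FPKM at 60 min and 62.6, 59.7 and 61 FPKM at 30 min of waterlogging. At 60 min it lay below the untreated leaves, which held 7.04, 9.0 and 6.85 FPKM, and the log2 change was -3.57 (SE 0.13, adjusted p = 2.46e-16). ZAT12, a zinc finger factor of the ROS response, was at 0.694, 0.841 and 1.12 FPKM at 60 min and 9.44, 8.17 and 9.06 FPKM at 30 min, a change of -2.39 (adjusted p = 3.08e-10). WRKY40, a repressor in defence signalling, had 3.56, 3.68 and 4.1 FPKM at 60 min and 21, 22.2 and 22.1 FPKM at 30 min. Untreated leaves showed the reverse for WRKY40, with 6.86, 6.83 and 6.05 FPKM at 60 min and 2.81, 2.81 and 2.75 FPKM at 30 min, so that the changes were -2.25 with and 1.0 without waterlogging and their difference was -3.25 (SE 0.13, adjusted p = 2.08e-15). WRKY33 and WRKY46, both regulators of defence against pathogens, changed by -2.4 and -2.4. WRKY25, which acts in heat and oxidative stress, was one of the 2 that rose, by 1.16 in waterlogged and 0.72 in untreated leaves. WRKY15 was the other, at 0.29 with and 0.57 without waterlogging. The MYB factor MYB77, a partner of auxin response factors, fell by 3.43 and averaged 4.55 ± 0.0429 FPKM at 60 min and 58.9 ± 2.72 FPKM at 30 min (SD, n = 3 each).

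Touch genes and calcium sensors fell together with cell wall genes of the same kind of response. TCH4 (AT5G57560, chr5:23307006-23308680), a touch-induced xyloglucan endotransglucosylase that loosens and rejoins wall polymers, had 44.2, 45.5 and 47.5 FPKM at 60 min and 498, 501 and 498 FPKM at 30 min. The libraries of each time lay within a few FPKM of each other and far from those of the other time, and the log2 change was -3.42 (SE 0.07, adjusted p = 9.54e-21). PHI-1 and EXO, both secreted proteins of the EXORDIUM family linked to cell expansion, showed the same course. PHI-1 held 14.8, 13.7 and 14.1 FPKM at 60 min and 166, 149.5 and 159 FPKM at 30 min, and EXO 23.8, 21.5 and 21.2 FPKM at 60 min and 208, 201 and 205 FPKM at 30 min. Their changes were -3.39 (adjusted p = 9.35e-19) and -3.15 (adjusted p = 1.54e-17). AT4G27280, a calcium-binding EF-hand protein, was at 9.65, 9.51 and 9.37 FPKM at 60 min and 234, 215 and 217 FPKM at 30 min, a change of -4.41. At 60 min this gene also lay below all untreated libraries, which held 26.1, 22.7 and 25.1 FPKM.

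Of 9 tested touch and calcium sensor genes 6 fell and none rose, with a median of -1.03, against 4 rises and no fall in untreated leaves. The calmodulin-like proteins CML23 and TCH2 fell by 2.11 and 1.46, and CBP60G, a calmodulin-binding activator of salicylic acid synthesis, fell by 1.76. The wider list of 24 tested wall genes was evenly divided, with 9 falls, 9 rises and a median of 0.12. Genes of the same enzyme family as TCH4 were among those that rose. XTH25 averaged 9.82 ± 0.90 FPKM at 60 min and 3.04 ± 0.186 FPKM at 30 min, XTH24 273 ± 9.49 FPKM at 60 min and 151 ± 3.83 FPKM at 30 min, and XTH15 6.18 ± 0.867 FPKM at 60 min and 3.17 ± 0.294 FPKM at 30 min (SD, n = 3 each). Their log2 changes were 1.42, 0.85 and 0.78, and the difference from untreated leaves was positive and past the threshold for all 3, though with a pseudocount of 0.1 that of XTH25 was not (adjusted p = 0.297). XTH25 and XTH24 also rose in untreated leaves, by 0.62 and 0.45, the untreated call of XTH25 being lost in 2 of 6 fits that leave out a library.

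**Figure D3:**
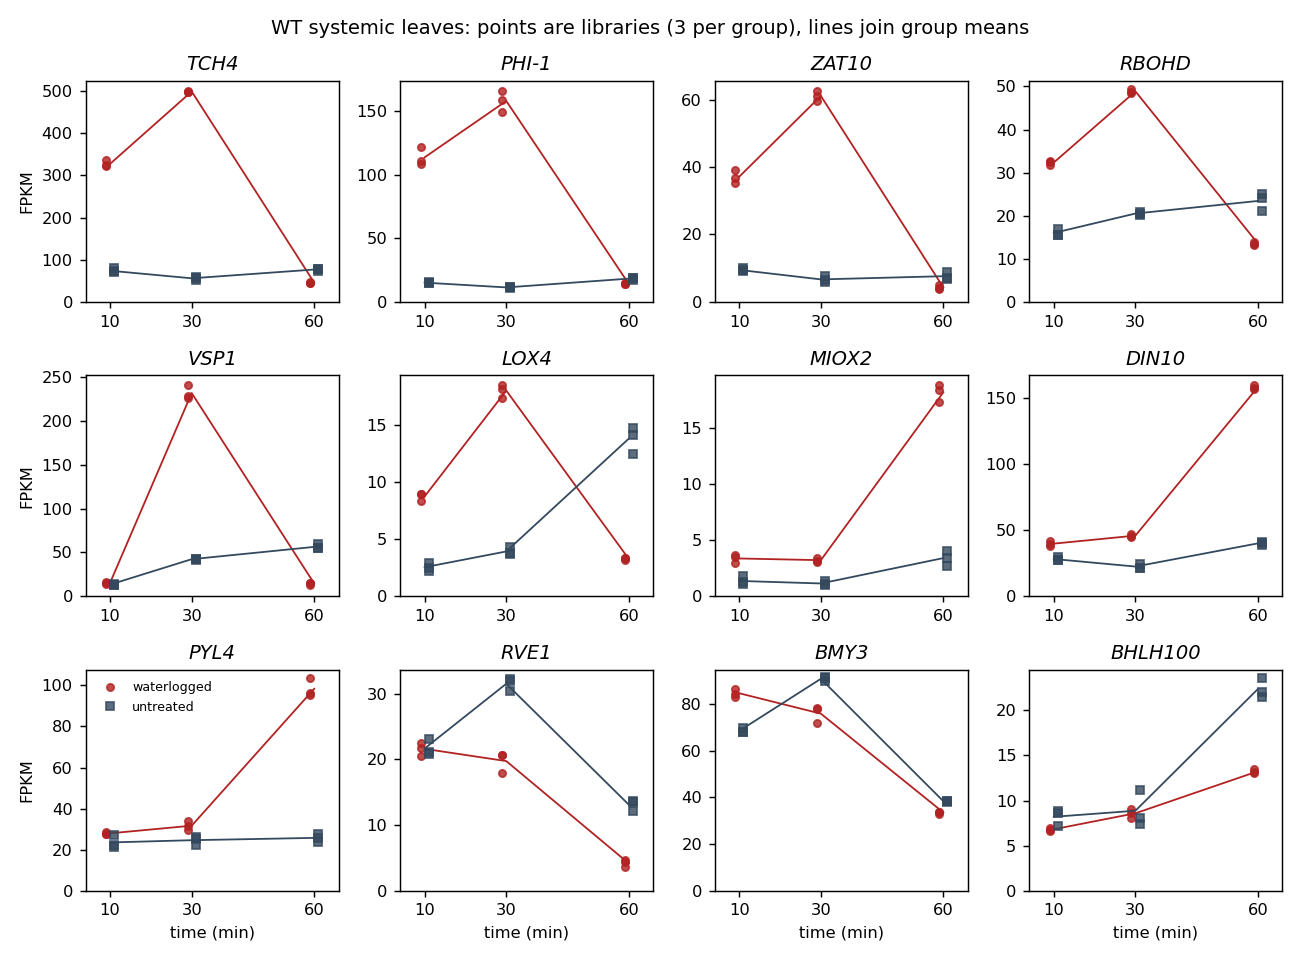
FPKM (vertical axes, from 0) against time in min (horizontal axes) for 12 genes in waterlogged (red circles) and untreated (dark squares) WT leaves, with each point a library and lines joining the means of 3. TCH4, PHI-1, ZAT10 and RBOHD were already above untreated leaves at 10 min, peaked at 30 min and lay below them at 60 min, whereas MIOX2, DIN10 and PYL4 stood apart most at 60 min.

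Jasmonate genes fell as well, though fewer of the output than of the synthesis genes had been higher at 10 min. Jasmonate is made from fatty acids by lipoxygenases (LOX), allene oxide synthase and cyclase (AOS, AOC), and JAZ proteins hold its target genes silent until the hormone is sensed. At 10 min 1 of 13 members of the turnover and output list, 2 of 10 JAZ genes and 6 of 13 synthesis genes were higher, against 4.14% of all genes. Of the output and JAZ lists 11 of 13 and 8 of 10 tested members fell between 30 and 60 min. Here too, members expressed mainly at 30 min of waterlogging could pass the filter through those libraries. These counts are therefore not evidence of their own. Of 13 genes of synthesis 11 fell, with a median of -0.75, and 1 rose. The medians of the output and JAZ lists were -1.3 and -0.80, and no member of either rose. In untreated leaves the count was turned round, with 8 rises and 1 fall in synthesis, 7 rises and 0 falls in turnover and output, and 6 rises and 1 fall among JAZ genes.

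The synthesis enzyme LOX2, a chloroplast lipoxygenase, had 82.7, 85.2 and 82.3 FPKM at 60 min of waterlogging and 338, 340.4 and 338 FPKM at 30 min, while untreated leaves held 182, 186 and 183 FPKM at 60 min and 178, 187 and 186 FPKM at 30 min. Its change was -2.01 (SE 0.04, adjusted p = 9.54e-21) with waterlogging, against a change that rounds to 0 without it. LOX4 gave opposite calls in both settings. Waterlogged leaves held 3.34, 3.35 and 3.14 FPKM at 60 min and 18.1, 18.5 and 17.4 FPKM at 30 min, and untreated leaves 12.5, 14.2 and 14.8 FPKM at 60 min and 3.7, 3.81 and 4.29 FPKM at 30 min. The groups did not overlap in either setting, and the difference of the changes was -3.74 (SE 0.12, adjusted p = 1.57e-16). AOC1, an allene oxide cyclase, changed by -1.15 with and 0.43 without waterlogging. LOX6, the lipoxygenase known for rapid wound-induced jasmonate, was the member that rose, by 0.69 (adjusted p = 2.52e-08).

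Outputs of the pathway held the steepest falls of these 3 lists. VSP1 (AT5G24780), a vegetative storage protein used as a jasmonate marker, was at 13.1, 15.2 and 15.5 FPKM at 60 min and 240.3, 226 and 228 FPKM at 30 min of waterlogging. Untreated leaves held 54.8, 59.3 and 55 FPKM at 60 min and 42.6, 42.8 and 41.7 FPKM at 30 min, so the waterlogged libraries lay above all untreated ones at 30 min and below all of them at 60 min. The log2 change was -3.9 (SE 0.08, adjusted p = 2e-20). NATA1, an ornithine acetyltransferase induced by jasmonate, stood at 1.8, 1.0 and 0.796 FPKM at 60 min and 41.6, 44.1 and 41.7 FPKM at 30 min. It had been low at 10 min in waterlogged leaves, with 0.589, 0.476 and 0.79 FPKM, and its change from 30 to 60 min was -4.33 (adjusted p = 5.23e-16). VSP2, the paralogue of VSP1, changed by -2.95, and reads of such similar genes may be split between them. Among the repressors, JAZ7 changed by -1.8 with and 1.81 without waterlogging, JAZ5 by -1.55 with and 1.07 without waterlogging, JAZ1 by -1.23 with and 0.73 without waterlogging, and JAZ10 by -1.12 with and 0.98 without waterlogging. All 4 differed between both settings beyond the threshold.

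Salicylic acid genes moved the same way from 30 to 60 min, with 6 falls and no rise among 9 tested members and a median of -0.47, against 6 rises and no fall in untreated leaves. At 10 min 2 of the 9 had been higher and 3 lower than in untreated leaves, against 4.14% and 0.863% of all genes. BGL2, the pathogenesis-related glucanase PR2, averaged 6.99 ± 0.594 FPKM at 60 min and 18.4 ± 1.21 FPKM at 30 min of waterlogging (SD, n = 3 each). In untreated leaves BGL2 averaged 18.2 ± 1.97 FPKM at 60 min and 7.89 ± 0.475 FPKM at 30 min. SARD1, an activator of salicylic acid synthesis, and PR5, a thaumatin-like defence protein, changed by -1.17 and -0.51 with waterlogging and by 0.82 and 0.2 without it.

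Among ethylene genes a single fall stood beside several rises. ACS6 (AT4G11280), an enzyme of the rate-limiting step of ethylene synthesis, was at 9.69, 8.52 and 8.41 FPKM at 60 min and 106, 106 and 107 FPKM at 30 min. At 60 min it lay below all untreated libraries, which held 25.7, 30.5 and 27 FPKM, and its change was -3.44 (SE 0.06, adjusted p = 1.99e-21). ACS6 was the only one of 8 tested ethylene genes that fell, and 5 rose, with a list median of 0.27. EBF2, an F-box protein that removes the ethylene-response factor EIN3, had 23.8, 23.7 and 23.4 FPKM at 60 min and 11.8, 12.4 and 11.2 FPKM at 30 min, a rise of 0.95 (adjusted p = 2.18e-11). EBF2 also rose in untreated leaves, by 0.38, and the difference was 0.57 (adjusted p = 4.77e-05). ACO4, which carries out the last step of synthesis, and the receptor gene ERS1 rose by 0.38 and 0.28.

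ABA and dehydration genes mostly fell, 16 of 20 tested, with 1 rise and a median of -0.46. CYP707A3, which breaks ABA down, held 3.79, 3.15 and 2.92 FPKM at 60 min and 42.7, 41 and 41.7 FPKM at 30 min and had already reached 28.6, 27.2 and 27.2 FPKM at 10 min. Its log2 change from 30 to 60 min was -3.32 (SE 0.11, adjusted p = 2.49e-17). RD20, a caleosin of lipid bodies induced by drought, averaged 15.2 ± 0.895 FPKM at 60 min and 57.9 ± 3.89 FPKM at 30 min (SD, n = 3 each). RD20 also fell by 0.57 in untreated leaves, and the difference was -1.3 (adjusted p = 1.08e-10). AHG3, a phosphatase that restrains ABA signalling, changed by -0.86 with and 0.23 without waterlogging. The receptor gene PYL4 (AT2G38310, chr2:16049918-16051356), which was not on that list, went up instead. PYL4 had 96.4, 103 and 95.2 FPKM at 60 min and 31.6, 29.7 and 33.8 FPKM at 30 min of waterlogging, and untreated leaves held 23.9, 25.9 and 27.5 FPKM at 60 min and 22.5, 25.4 and 26 FPKM at 30 min. Its rise of 1.6 (SE 0.09, adjusted p = 1.75e-12) was not seen without treatment, where the change was 0.06 (adjusted p = 0.773). COR47, a dehydrin, was the list member that rose, by 0.61 with and 0.28 without waterlogging.

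Of the 23 lists, that of darkness and sugar shortage, genes which plants turn on when carbon runs low, had the highest median change in waterlogged leaves. In that list 13 of 19 tested members rose and 3 fell, with a median of 0.45, and in untreated leaves 9 rose and 2 fell, with a median of 0.26. The difference between both settings was positive and past the threshold for 10 members. DIN10 (AT5G20250), a raffinose synthase family protein induced in the dark, had 160.1, 157 and 158 FPKM at 60 min and 45.6, 45.1 and 47.2 FPKM at 30 min of waterlogging. Untreated leaves held 39.1, 40.1 and 41.1 FPKM at 60 min and 21.7, 21.5 and 24.4 FPKM at 30 min, so DIN10 rose in both, by 1.76 with and 0.81 without waterlogging, and the difference was 0.96 (SE 0.08, adjusted p = 1.39e-09). MIOX2, which oxidises the sugar alcohol inositol, was at 18.8, 17.4 and 18.4 FPKM at 60 min and 3.18, 3.07 and 3.43 FPKM at 30 min. Waterlogged libraries of MIOX2 lay above all untreated ones at 60 min, where untreated leaves held 2.74, 4.04 and 3.46 FPKM, and the rise was 2.18 (adjusted p = 3.18e-12). MIOX2 also rose in untreated leaves, by 1.03, and the difference was 1.15 (adjusted p = 6.75e-05). ASN1, the dark-induced asparagine synthetase, averaged 78.9 ± 2.21 FPKM at 60 min and 30.9 ± 0.219 FPKM at 30 min (SD, n = 3 each), a rise of 1.33, against a rise of 0.52 in untreated leaves. The 3 members that fell were DIN9, a phosphomannose isomerase, at -1.27, the trehalose phosphate synthase homologue TPS5 at -0.8, and BT2, a regulator repressed by sugar, at -0.23 (adjusted p = 0.0177), a call lost without waterlogged 60 min replicate 1 or waterlogged 30 min replicate 1. DIN9 and TPS5 also fell in untreated leaves, by 0.39 and 0.32, the untreated call of DIN9 being lost in 2 of 6 fits that leave out a library.

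Other large rises were in single genes of several pathways. ERD5 (AT3G30775), the proline dehydrogenase that starts proline breakdown, stood at 154, 154 and 152 FPKM at 60 min and 52.9, 54.6 and 54.1 FPKM at 30 min, and at 52.3, 51.6 and 51.4 FPKM in untreated leaves of 60 min. The groups of both times were far apart, and the rise was 1.49 (SE 0.05, adjusted p = 1.74e-17), against a rise of 0.59 in untreated leaves. PORA (AT5G54190), a protochlorophyllide reductase known from seedlings in the dark, was at 25.5, 26.1 and 22.2 FPKM at 60 min and 8.14, 8.22 and 8.64 FPKM at 30 min, a rise of 1.45 (adjusted p = 8.12e-11), and it rose by 0.5 in untreated leaves. ABCB21, an auxin transporter, averaged 8.92 ± 0.317 FPKM at 60 min and 2.39 ± 0.0539 FPKM at 30 min (SD, n = 3 each), and its rises were 1.55 with and 0.3 without waterlogging. The untreated call was lost in 4 of 6 fits that leave out a library. The largest rise by the rule for named genes was that of AT4G05170, a bHLH DNA-binding protein, with 11, 12.1 and 12.7 FPKM at 60 min and 1.77, 1.66 and 1.48 FPKM at 30 min, a log2 change of 2.29, and it rose by 0.95 in untreated leaves. AT1G72416, a DnaJ-domain protein, followed with 2.23 with and 1.06 without waterlogging. AT4G21870, an HSP20-like chaperone, changed by 1.98 with and 0.46 without waterlogging, the untreated call being lost in 2 of 6 fits that leave out a library. AT5G57760, an uncharacterised protein, rose by 1.91 with and 1.19 without waterlogging, and their difference did not pass the test (0.72, adjusted p = 0.155). AT5G62280, a DUF1442 protein, rose by 1.6 with and 1.16 without waterlogging, and AT5G02760, a protein phosphatase 2C, by 1.48 with and 0.87 without it. For AT4G05170 the difference was 1.34 (adjusted p = 0.000112), a call lost with a pseudocount of 0.1 (adjusted p = 0.121). AT1G75960, an AMP-dependent synthetase family protein, and AT1G66940, a kinase-like protein, rose by 1.33 and 1.27 with almost no change in untreated leaves (-0.08 and 0.02).

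Genes of oxygen shortage, the condition waterlogging creates at the root, had mostly small log2 changes in these leaves, on a scale that understates low genes. Of 26 core hypoxia genes 14 were expressed highly enough to be tested, and 5 (35.7%) rose, against 21.1% of all genes tested, and 3 (21.4%) fell, against 16.9% of all, with a median of 0.17. ADH1, alcohol dehydrogenase of fermentation, had 1.77, 2.22 and 2.2 FPKM at 60 min and 2.24, 1.9 and 2.14 FPKM at 30 min, and its change of -0.02 (SE 0.11) did not pass the test (adjusted p = 0.925). The transcription factor genes HRE1 and LBD41 did rise at low levels. HRE1 had 4.1, 2.64 and 2.96 FPKM at 60 min and 1.28, 0.811 and 1.56 FPKM at 30 min, a change of 0.93 (adjusted p = 0.000289), and LBD41 had 2.33, 2.16 and 2.87 FPKM at 60 min and 1.24, 1.31 and 1.48 FPKM at 30 min, a change of 0.55 (adjusted p = 0.00809). The differences from untreated leaves were 0.91 for HRE1 (adjusted p = 0.0158) and 0.92 for LBD41 (adjusted p = 0.00528). That of HRE1 was lost in 3 of 12 fits that leave out a library. HUP54, a protein of unknown role induced by hypoxia, rose by 0.71 with and 0.35 without waterlogging. The falls were small, at -0.18 for the pyruvate decarboxylase gene PDC2, -0.35 for the ACT-domain protein gene ACR7 and -0.27 for the thioredoxin gene ACHT5. In untreated leaves PDC2 also fell, by 0.35, whereas ACR7 and ACHT5 rose by 0.44 and 0.41. Without waterlogged 60 min replicate 1 none of the 3 falls in waterlogged leaves was called, and without waterlogged 30 min replicate 1 a single one was.

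**Figure D4:**
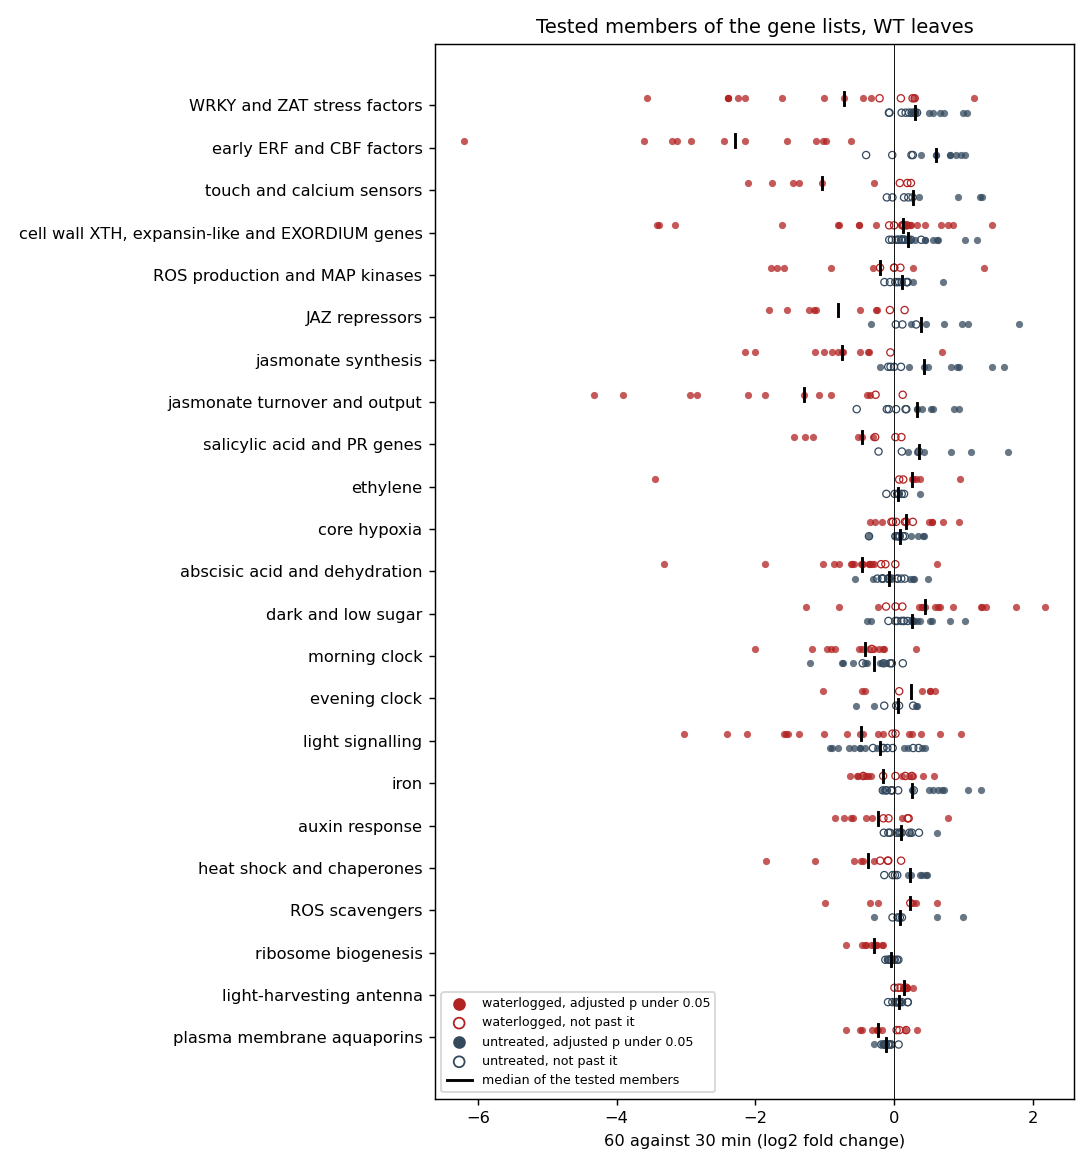
Log2 fold change of 60 against 30 min (horizontal axis) for each tested member of 23 gene lists, with waterlogged WT leaves in red above untreated WT leaves in dark blue in each row, filled where the adjusted p was under 0.05 and with a black bar at the median. The ERF and CBF list lies furthest left in waterlogged leaves, at a median of -2.29, and the dark and low sugar list furthest right, at 0.45.

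Clock and light genes changed with and without waterlogging. Of 14 genes of the morning clock 12 fell and 1 rose, with a median of -0.41, and in untreated leaves 9 fell and none rose, with a median of -0.29. RVE1, a MYB-like factor of clock output, had 4.32, 3.55 and 4.61 FPKM at 60 min and 20.6, 20.6 and 18 FPKM at 30 min of waterlogging, and untreated leaves held 13.5, 13.7 and 12.1 FPKM at 60 min and 30.4, 31.9 and 32.2 FPKM at 30 min. At both times the waterlogged libraries lay below the untreated ones, and RVE1 fell by 2.01 with and by 1.21 without waterlogging, a difference of -0.8 (SE 0.13, adjusted p = 5.57e-05). PRR9, a pseudo-response regulator, and RVE8, an activator of evening genes, changed by -1.18 and -0.96 with waterlogging and -0.75 and -0.42 without it. Among 8 tested members of the list named for the evening clock 4 rose and 3 fell. TOC1, the evening repressor, rose by 0.51 in waterlogged and 0.32 in untreated leaves (the untreated call was lost in 4 of 6 fits that leave out a library). CDF1, a repressor of flowering that was counted in that list, fell by 1.03 in waterlogged and 0.29 in untreated leaves. GI fell in both settings, by 0.42 with and 0.54 without waterlogging.

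Light signalling genes fell in 13 of 20 cases (65%, against 16.9% of all genes) and rose in 5 (25%, against 21.1%), with a median of -0.47. In untreated leaves 9 fell and 4 rose. The steepest falls belonged to B-box proteins that modulate light responses. BBX32 was at 1.1, 1.14 and 0.788 FPKM at 60 min and 16.6, 13.8 and 15.6 FPKM at 30 min of waterlogging, against 7.06, 6.22 and 8.68 FPKM at 60 min and 10.3, 11.4 and 10.1 FPKM at 30 min in untreated leaves. BBX30 had 2.29, 2.56 and 2.41 FPKM at 60 min and 17.3, 15.7 and 18.4 FPKM at 30 min. Waterlogged leaves of 60 min stood alone at the low end for both genes, and the changes were -3.02 (adjusted p = 4.38e-14) and -2.41 (adjusted p = 1.64e-13). BBX31 changed by -2.12 with and -0.89 without waterlogging. BBX14, another B-box protein, rose by 0.96 and averaged 139.7 ± 1.73 FPKM at 60 min and 71.2 ± 1.9 FPKM at 30 min (SD, n = 3 each). BBX14 rose by 0.45 in untreated leaves as well. PIF4, a growth-promoting factor repressed by light, rose in both settings, by 0.39 with and 0.4 without waterlogging, with a difference of -0.02 (SE 0.07).

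Shifts were mostly smaller in genes of growth, stress protection and housekeeping. All 11 ribosome biogenesis genes fell, none of them in untreated leaves, with a median of -0.29. FIB2, a fibrillarin of the nucleolus, averaged 28.1 ± 1.05 FPKM at 60 min and 46.2 ± 2.4 FPKM at 30 min (SD, n = 3 each). Of 13 aquaporins of the plasma membrane, the water channels of the leaf, 8 fell (61.5%, against 16.9% of all genes) and 2 rose (15.4%, against 21.1%). In untreated leaves 3 of these aquaporins fell and 0 rose. PIP2;1, the most abundant of those named, averaged 1242 ± 19.8 FPKM at 60 min and 1712 ± 42 FPKM at 30 min (SD, n = 3 each), a change of -0.46 (adjusted p = 2.19e-07). Auxin response genes fell in 6 of 12 cases (50%, against 16.9% of all genes), with the repressor gene IAA14 at -0.85. They rose in 2 (16.7%, against 21.1% of all), IAA29 at 0.78 and IAA7 at 0.11 (adjusted p = 0.0328). IAA29 also rose by 0.62 in untreated leaves. The call for IAA7 was lost when any of 5 single libraries was left out. Heat shock factors and chaperones fell in 6 of 10 cases and rose in none, led by the repressors HSFB2A at -1.85 and HSFB2B at -1.14. In untreated leaves 6 of the 10 rose and 0 fell, and the difference was negative and past the threshold for 8. At 10 min 7 of the 10 had been higher in waterlogged leaves, against 4.14% of all genes. The peroxisomal catalase CAT2, which removes photorespiratory peroxide, averaged 572 ± 5.41 FPKM at 60 min and 1139.5 ± 3.95 FPKM at 30 min (SD, n = 3 each), a change of -0.99, and in untreated leaves it changed by -0.29. Its homologue CAT3 rose by 0.32. Light-harvesting antenna genes rose in 10 of 14 cases by a median of 0.15, but after quantile normalization 2 members rose.

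Iron genes differed between both settings. Of 17 tested, 5 rose and 7 fell in waterlogged leaves and 8 rose and 1 fell in untreated leaves, and the difference was negative and past the threshold for 10. Of the 5 rises in waterlogged leaves, 2 were called without waterlogged 60 min replicate 2 or waterlogged 30 min replicate 2, and 3 without waterlogged 60 min replicate 3, waterlogged 30 min replicate 1 or waterlogged 30 min replicate 3. BHLH100, an inducer of iron uptake, had 13.5, 13.1 and 13.1 FPKM at 60 min and 8.09, 8.67 and 9.0 FPKM at 30 min of waterlogging, against 22, 23.6 and 21.5 FPKM at 60 min and 8.05, 11.1 and 7.42 FPKM at 30 min in untreated leaves. Both settings showed a rise, by 0.57 with and 1.26 without waterlogging, and only at 60 min were waterlogged leaves below all untreated ones. Its relative BHLH38 rose by 0.41 with and 1.07 without waterlogging. IMA3, a peptide that signals iron need, and the ferritin gene FER3 fell by 0.53 and 0.53 with waterlogging, and their changes without it were -0.03 (adjusted p = 0.804) and -0.12 (adjusted p = 0.259).

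Part of what moved between both times moved without treatment. Of the 101 genes that rose at least 2-fold in waterlogged leaves, 60 also rose in untreated leaves and none fell, and for 77 the rise was larger than the untreated one beyond the threshold. Of the 401 genes that fell at least 2-fold, 140 fell and 94 rose in untreated leaves, and for 382 the difference was negative and past the threshold. Some genes took the same course in both. BMY3, a beta-amylase family protein, had 32.9, 33.9 and 33.8 FPKM at 60 min and 77.7, 71.6 and 78.2 FPKM at 30 min of waterlogging, and 38.1, 38.4 and 38.6 FPKM at 60 min and 89.7, 91.6 and 90.9 FPKM at 30 min in untreated leaves. Its changes of -1.15 and -1.22 left a difference of 0.07 (SE 0.06, adjusted p = 0.468). The GATA factor gene CGA1 changed by -1.12 with and -1.15 without waterlogging, and ABCI21, an ABC protein, by -1.11 with and -1.1 without waterlogging. Other genes rose in untreated leaves and had passed that level earlier in waterlogged ones. BCB, a blue copper-binding protein of the cell surface, held 11.2, 12.7 and 12.4 FPKM at 60 min and 15.2, 12.8 and 14.3 FPKM at 30 min of waterlogging, and 10.4, 11.5 and 10.7 FPKM at 60 min and 3.2, 2.5 and 2.67 FPKM at 30 min in untreated leaves. BCB rose by 1.65 without waterlogging, while its change of -0.2 with it did not pass the test (adjusted p = 0.191). HIR2, a membrane protein of the hypersensitive reaction, rose in both, by 0.76 with and 1.48 without waterlogging.

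Markers of other tissues and cells were read beside these results. In the meristem list AP1 and WUS were at 0 in all 12 libraries, and STM, a meristem homeobox gene, stood at 3.12, 3.59 and 2.95 FPKM at 60 min and 2.08, 2.11 and 1.94 FPKM at 30 min of waterlogging. In untreated leaves STM held 2.1, 2.17 and 2.69 FPKM at 60 min and 3.71, 3.12 and 3.96 FPKM at 30 min, so the directions were opposite, with changes of 0.47 and -0.47. The guard cell factor gene MYB60 fell by 0.27 in waterlogged leaves (adjusted p = 0.0395), a call lost in 4 of the 6 fits that leave out a library, and the summed level of MYB60 and the phloem gene SUC2 spanned 92.9 to 101 FPKM at 60 min and 95.4 to 101 FPKM at 30 min. Their part in the other results was not tested.

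A comparison that shares no library with the main one was given by leaves labelled rbohD, a genotype named for the oxidase gene, after 60 min of waterlogging against untreated leaves of the same label. RBOHD itself stood at 13, 11.9 and 15.7 FPKM in the waterlogged and 12.9, 13.1 and 12.4 FPKM in the untreated libraries of that label, so its level alone does not settle the genotype. Of the 3694 genes that rose between 30 and 60 min in WT, 2296 (62.2%) were higher in waterlogged than in untreated libraries labelled rbohD, against 26.3% of all genes, and of the 2963 that fell, 2074 (70.0%) were lower, against 32.7% of all genes. Among the 101 rises of at least 2-fold, 91 were higher in that contrast and 1 lower. The 401 falls of at least 2-fold were divided, with 180 higher and 188 lower. TCH4 was among those higher, with 109.8, 115 and 131 FPKM in waterlogged and 7.74, 6.2 and 7.16 FPKM in untreated libraries labelled rbohD. PHI-1 was likewise at 48.6, 45.8 and 48.6 FPKM in waterlogged and 1.74, 0.83 and 1.13 FPKM in untreated ones. BBX32 and RVE1 were lower there, by -2.96 and -2.42 on the log2 scale.

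Motif letters in promoters were counted over the 300 bases from 250 before to 50 after the gene start of 16808 tested nuclear protein-coding genes, on both strands. The rapid stress response element core CGCGTT, bound by calmodulin-binding CAMTA factors, was in 3.70% of all promoters and in 13.3% of the 414 promoters of early genes that fell, such as PHI-1. It was in 13.0% of the 301 promoters of early genes that did not fall, and in 1.43% of the 210 promoters of genes that fell at least 2-fold without having been higher at 10 min. The W-box core TTGAC, the site of WRKY factors, was in 50.2% of all promoters and in 61.8% and 60.5% of both early sets. The G-box CACGTG, bound by bHLH and bZIP factors, was in 8.99% of all promoters, in 11.6% of the early genes that fell, in 5.65% of the early genes that did not and in 15.2% of the other genes that fell at least 2-fold. For the genes that rose at least 2-fold, the evening element AAAATATCT, a site of clock factors, was in 9.47% of 95 promoters, PORA among them, against 3.00% of all promoters. The I-box core GATAAG was in 23.2% of these promoters against 15.1% of all. The GCC-box GCCGCC was in 2.65% of all promoters and 3.14% of the early genes that fell, and the DRE core CCGAC in 16.7% and 16.4%. None of the 7 motifs holds the letters of another within it. These are counts of letters in fixed windows, with no test.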

How the data were processed

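RNA was extracted from leaves with a Plant RNeasy kit and sequenced from standard Illumina libraries, per the labels' protocols. The submitters' processing notes name Trim Galore 0.6.7, HISAT2 2.2.1, Cufflinks 2.2.1, Cuffdiff and the TAIR10 genome, without saying which step each served. The deposited values are FPKM per gene, 1 file for each library, per the file headers. Only 51.8% to 54.4% of low values came out as whole fragments (within 0.05 fragments), so counts were not recovered and no count test was run. Of 32826 rows per file, 2 gene IDs listed more than once and 2 genes with failed status were dropped, which left 32820. IDs were matched to RefSeq TAIR10.1 in 99.1% of cases, with identical boundaries in 99.9% of those.

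log2(FPKM + 1) of the 17491 genes averaging 1 FPKM or more was fitted with limma 3.58.1 in R 4.3.3, with all 10 groups of 3 libraries in a single fit (20 residual degrees of freedom) and Benjamini-Hochberg adjustment over all genes at 0.05. Tested on simulated data for this comparison with 200 of 17491 genes changed, it recovered 96.5% at a log2 change of 1 (4.93% false among those called) and 74.5% at 0.5 (2.61% false), and called 0 with no change. Gene groups and the genes in them were chosen with earlier results of these data known. Genes named in the text are the largest changes with a mean of at least 5 FPKM, no overlap and no 0, up to 3 called members per list and direction with a mean of at least 2 FPKM, the largest changes in untreated leaves and in the difference between both settings, and 10 set genes. Alternatives were another pseudocount, filter, scaling, fit, a replicate block and each library left out.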

Additional observations from a re-analysis of the deposited data

Results flagged for a closer look

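A set of genes was singled out because the change between 60 and 30 min was called in waterlogged and in untreated leaves with opposite signs and the difference between both changes, waterlogged minus untreated, itself passed limma's test at an adjusted p under 0.05. All but 1 of the 26 named genes in this set fell with waterlogging and rose without it. The difference passed the test for each of the 26 under every alternative in which it was computed, but the untreated call was lost for 8 genes in at least 1 fit that leaves out a library. NATA1 lost it in 5 of 6 such fits (adjusted p = 0.0644 to 0.154) and with a pseudocount of 0.1 (adjusted p = 0.399), CBF2 and CBP60G in 4 of 6 each, ACR7, HSFA2 and PR5 in 2 each, and ACHT5 and VSP2 in 1 each. The fall with waterlogging was lost in 4 such fits for ACHT5 and in 2 for ACR7. In at least 1 of the alternatives other than left-out libraries, the untreated call was lost for 16 of the 26 genes. For the genes concerned, membership in the set depends on the processing. On the log2 scale the difference was -4.86 for NATA1, -4.31 for VSP1 and -3.28 for VSP2, the jasmonate outputs. It was -3.74 for LOX4 and -1.58 for AOC1 in jasmonate synthesis, and -3.61 for JAZ7, -2.62 for JAZ5, -2.10 for JAZ10 and -1.96 for JAZ1 among the JAZ repressors. Early genes followed with -4.02 for PHI-1, -3.87 for TCH4, -3.84 for AT1G72920, a TIR-domain protein, -3.81 for CBF2, -3.25 for WRKY40, -3.06 for WRKY33 and -2.40 for MPK3. In salicylic acid genes it was -2.39 for BGL2, -2.12 for CBP60G, -1.98 for SARD1 and -0.71 for PR5. ABA genes gave -3.81 for CYP707A3 and -1.09 for AHG3. The smaller ones were -0.97 for the heat shock factor gene HSFA2, -0.79 for ACR7 and -0.68 for ACHT5. STM, a meristem gene, was the exception, with a difference of 0.94, having risen with waterlogging and fallen without it.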

How the results depend on the processing

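Of 2000 recalculated fold changes of named genes in waterlogged leaves, 1940 kept their side of the threshold and 60 lost the call. None that was called in the main fit or in the alternative changed sign, and the signs of uncalled values were not compared. In untreated leaves 112 of 2000 lost the call and 7 gained it, and for the difference 97 of 2810 lost it and 13 gained it. These were computed under other scalings, filters, pseudocounts, fits and left-out libraries. Fitting just the libraries under comparison gave 1102 calls in untreated leaves, 364 of them lower, and 84 early genes that rose in waterlogged leaves. A mean of at least 5 FPKM left 60 rises of at least 2-fold, and a pseudocount of 0.1 gave 166. The cause of these shifts was not tested. With 1 library left out, 5817 to 5902 genes were called in waterlogged leaves (3031 to 3266 higher, 2608 to 2786 lower; 101 to 117 and 392 to 409 at least 2-fold). Under the same omissions 1270 to 1423 genes were called in untreated leaves (740 to 864 higher, 428 to 631 lower) and 2741 to 2930 in the difference between both (954 to 1294 positive, 1632 to 1796 negative). The count of early genes that fell was then 400 to 411 and of those that rose 120 to 126. Among genes that rose, 2006 to 2102 were higher in waterlogged libraries labelled rbohD, and among those that fell, 1821 to 1953 were lower.

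Whether replicate numbers pair the samples cannot be settled with 3 libraries per group. Same-numbered libraries of 60 and 30 min had deviations correlated at 0.01, -0.13 and -0.12 in waterlogged and 0.11, -0.03 and -0.06 in untreated leaves. For libraries of different number the correlations spanned -0.02 to 0.14 in waterlogged and -0.12 to 0.14 in untreated leaves. With the replicate number as a block in the libraries compared, 374 genes were called in untreated leaves (260 higher, 114 lower), 202 early genes fell and 23 rose, 1334 genes that rose were higher and 1341 that fell were lower in libraries labelled rbohD, and 7 ribosome biogenesis genes fell. As a block in all 30 libraries it changed no call of the named genes. Depth is known only by estimate and limits low genes, many of which were listed at 0.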

Other observations

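Superoxide dismutases and the ascorbate peroxidase differed in direction between 60 and 30 min of waterlogging. CSD1, a copper-zinc superoxide dismutase of the cytosol, had 51.2, 54 and 57.2 FPKM at 60 min and 37.3, 32.2 and 35.6 FPKM at 30 min of waterlogging, and 63.6, 68.8 and 62 FPKM at 60 min and 31.8, 31.4 and 32.7 FPKM at 30 min in untreated leaves. It rose in both settings, by 0.61 with and 0.99 without waterlogging, and the difference of -0.38 did not pass the test (limma, adjusted p = 0.0717), although it did in a fit of the 12 WT libraries alone (adjusted p = 0.0143). Its chloroplast relative CSD2 changed by 0.27 with and 0.61 without waterlogging, with a difference of -0.35 (adjusted p = 0.0415). That call was lost in 10 of 12 fits that leave out a library (adjusted p = 0.0563 to 0.118), with no filter, after quantile normalization and with the replicate block in the libraries compared. FSD1, an iron superoxide dismutase, averaged 734 ± 7.53 FPKM at 60 min and 935 ± 28.5 FPKM at 30 min of waterlogging (SD, n = 3 each) and fell by 0.35 on the log2 scale, whereas its change in untreated leaves was -0.02. APX1, the ascorbate peroxidase of the cytosol, fell by 0.23 in waterlogged leaves (adjusted p = 0.00716), a call lost without waterlogged 30 min replicate 1.

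Among evening genes, GRP7, an RNA-binding protein of clock output, averaged 33.8 ± 2.05 FPKM at 60 min and 22 ± 2.19 FPKM at 30 min of waterlogging (SD, n = 3 each), against 29.8 ± 2.05 FPKM at 60 min and 29.2 ± 2.61 FPKM at 30 min in untreated leaves. At 30 min the waterlogged libraries were below all untreated ones, and at 60 min they were above all of them. ELF3 and LUX, which work in the same evening complex, went opposite ways, with changes of 0.52 (adjusted p = 0.000232) and -0.46 (adjusted p = 3.23e-05) in waterlogged leaves. Beyond these lists, AT1G19020 rose by 1.56 in untreated leaves, with 21.1, 18.5 and 16 FPKM at 60 min and 7.29, 4.63 and 5.16 FPKM at 30 min, while its change in waterlogged leaves was 0.19 (adjusted p = 0.396).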
